A study of Mus musculus with 12 samples.

Results

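The genes described here encode the main proteases of the endosomes and lysosomes of antigen-presenting cells, with 1 helper enzyme and 1 inhibitor. They are the cysteine proteases cathepsin S (Ctss), L (Ctsl), B (Ctsb), Z (Ctsz), C (Ctsc) and H (Ctsh), the aspartic protease cathepsin D (Ctsd), the asparagine-specific cysteine protease legumain (Lgmn), the thiol reductase GILT (Ifi30) and cystatin C (Cst3), a secreted inhibitor of cysteine cathepsins. The genes were picked by name, and 10 of 10 were found among the 55322 rows of the expression table. Of these 10, 9 reached 1 FPKM (read fragments scaled by gene length and library total) in at least 3 of the 12 libraries, as did 12434 genes in all, and were tested. Each of the 9 stood above 1 FPKM in all 12 libraries, so none of them entered the test through 1 group alone. Ctsl did not pass this filter.

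A dendritic cell takes up protein into endosomes, cuts it into peptides there and loads the peptides onto major histocompatibility complex (MHC) class II molecules. Cathepsin S removes the last part of the invariant chain, the chaperone that blocks the class II groove, while legumain, cathepsin D and the other cathepsins cut antigen and activate one another's precursors. GILT reduces disulfide bonds so that folded antigen opens, and cystatins bind the active site of cysteine cathepsins. Conventional dendritic cells (cDCs) fall into cDC1s, known for presenting the antigen of dead cells on MHC class I, and cDC2s, known for presenting to CD4 T cells on class II.

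Bulk RNA sequencing covered cDCs sorted from mouse spleen, in 4 groups of 3 libraries that the titles call M-cDC1, L-cDC1, M-cDC2 and L-cDC2. The genotype given for every library is Il7r-cre; Rosa26-lsl-tdTomato, in which Cre from the Il7r locus permanently switches on a red reporter in cells that have expressed Il7r and in their descendants. The protocol and design texts instead speak of unmanipulated wild type C57BL/6J animals, 7 to 8 weeks old and housed pathogen-free, so all groups share genotype, strain, age and organ. The labels do not spell out L and M, though the series is named for cDCs of lymphoid origin, and they do not state which libraries were sorted on the reporter. No label says that the 3 libraries of a group came from separate mice, and the p-values therefore reflect library-to-library spread that may be technical. In such bulk samples, fewer cells of a type and less RNA per cell cannot be told apart.

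Libraries held 15879864 to 24498235 reads and 10394 to 11570 genes at 1 FPKM or more. The subset names matched their markers: by limma with Benjamini-Hochberg adjustment, 8 of 8 cDC1 markers were higher and 8 of 8 cDC2 markers lower in cDC1s than in cDC2s, within M and within L. Differences below are in log2(FPKM + 1) and a gene is called at an adjusted p under 0.05. Between cDC1s and cDC2s the median difference of all genes tested was -0.18 within M and -0.19 within L, and 33.2% and 32.7% of called genes were higher in cDC1s. After median-of-ratios scaling these medians were -0.03 and -0.04 and the shares 48.9% and 48.7%. After quantile normalization they were 0.04 and 0.02, with shares of 53.4% and 52.6%. The level in cDC1s of a gene with a small difference therefore depends on the scaling.

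The sequences just upstream of 4 of these genes are shown because the results turn on them: Cst3 was far higher in cDC1s, Ctsd had the widest gap of these proteases, and Ifi30 and Ctss were higher in cDC2s and hold motif matches of different kinds. Each runs over the 250 bases before the transcription start, 5′ to 3′ on the strand of the gene, from RefSeq on GRCm38.p6, which has entries for 8 of the 10 genes and none matched for Ctsb and Ctsh. Capitals mark matches to the motifs searched. The Cst3 stretch is chr2:148875513-148875762 (minus strand), that of Ctsd is chr7:142387828-142388077 (minus strand), that of Ifi30 is chr8:70766664-70766913 (minus strand) and that of Ctss is chr3:95526536-95526785 (plus strand).
Cst3: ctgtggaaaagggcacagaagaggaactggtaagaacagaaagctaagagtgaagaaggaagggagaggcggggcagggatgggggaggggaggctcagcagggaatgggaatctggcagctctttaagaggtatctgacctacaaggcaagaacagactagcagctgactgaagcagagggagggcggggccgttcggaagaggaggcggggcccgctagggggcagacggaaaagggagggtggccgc
Ctsd: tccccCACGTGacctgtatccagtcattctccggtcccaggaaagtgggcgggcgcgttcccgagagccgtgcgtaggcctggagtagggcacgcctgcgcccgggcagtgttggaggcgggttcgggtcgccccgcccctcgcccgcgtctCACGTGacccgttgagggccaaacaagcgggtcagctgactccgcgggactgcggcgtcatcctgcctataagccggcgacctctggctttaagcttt
Ifi30: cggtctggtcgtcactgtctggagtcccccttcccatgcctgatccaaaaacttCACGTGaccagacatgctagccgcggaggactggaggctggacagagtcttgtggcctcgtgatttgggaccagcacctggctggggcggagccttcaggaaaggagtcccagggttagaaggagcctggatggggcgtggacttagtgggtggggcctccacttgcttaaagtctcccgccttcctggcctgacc
Ctss: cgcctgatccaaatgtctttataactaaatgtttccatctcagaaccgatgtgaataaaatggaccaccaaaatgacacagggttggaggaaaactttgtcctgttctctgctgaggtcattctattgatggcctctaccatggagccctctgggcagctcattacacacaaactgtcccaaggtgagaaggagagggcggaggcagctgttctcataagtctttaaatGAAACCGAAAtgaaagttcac

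In all, 5 motifs were searched on both strands in the same 250 bases of 32851 promoters. CACGTG, the E-box read by the lysosome regulator TFEB among many other factors, lies in 6.02% of all promoters and in those of 4 of the 8 genes: Ctsd, Ifi30, Lgmn (the second of its 2 entries) and Ctsl. Ctsd holds it at 2 places, whose first bases are 245 and 98 bases before the start. A pair of half-sites for interferon regulatory factors (GAAA, any 2 bases, GAAA) lies in 2.98% of promoters and in that of Ctss, 21 bases before the start. TTCNNNGAA, the STAT motif, lies in 7.02% and in that of Ctsc, which also holds GAGGAAGT, the PU.1 motif, found in 2.44%. CCAAT lies in 33.8% and in those of Ctsz and Lgmn. None of these letters occur in the Cst3 stretch, and overlaps between motifs were not removed. A match describes the sequence only.

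Most of the proteases and the inhibitor went opposite ways between the subsets. Cst3 was 15.2-fold higher in M-cDC1 than in M-cDC2 and 22.4-fold higher in L-cDC1 than in L-cDC2, as ratios of mean FPKM. Ctsd, Ctsc, Ifi30, Ctsh, Lgmn, Ctss and Ctsz were lower in cDC1s, from 6.88-fold for Ctsd to 1.84-fold for Ctsz within M. Ctsb alone among the tested genes was not called in either comparison. By limma with Benjamini-Hochberg adjustment over all genes, 1 of 9 was called higher in M-cDC1 and 7 lower, and the same counts held in L. Among all genes tested, 38.1% were called within M (12.7% higher and 25.4% lower in cDC1s) and 39.5% within L (12.9% higher and 26.6% lower). Of the 9, 8 did not overlap between the subsets, 1 higher and 7 lower in cDC1s, within M and within L. Without overlap, 16.9% of all genes tested were higher and 34.2% lower in M-cDC1, and 16% and 32.7% in L-cDC1. The median difference of the 9 was -1.05 within M and -0.91 within L.

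**Figure D1:**
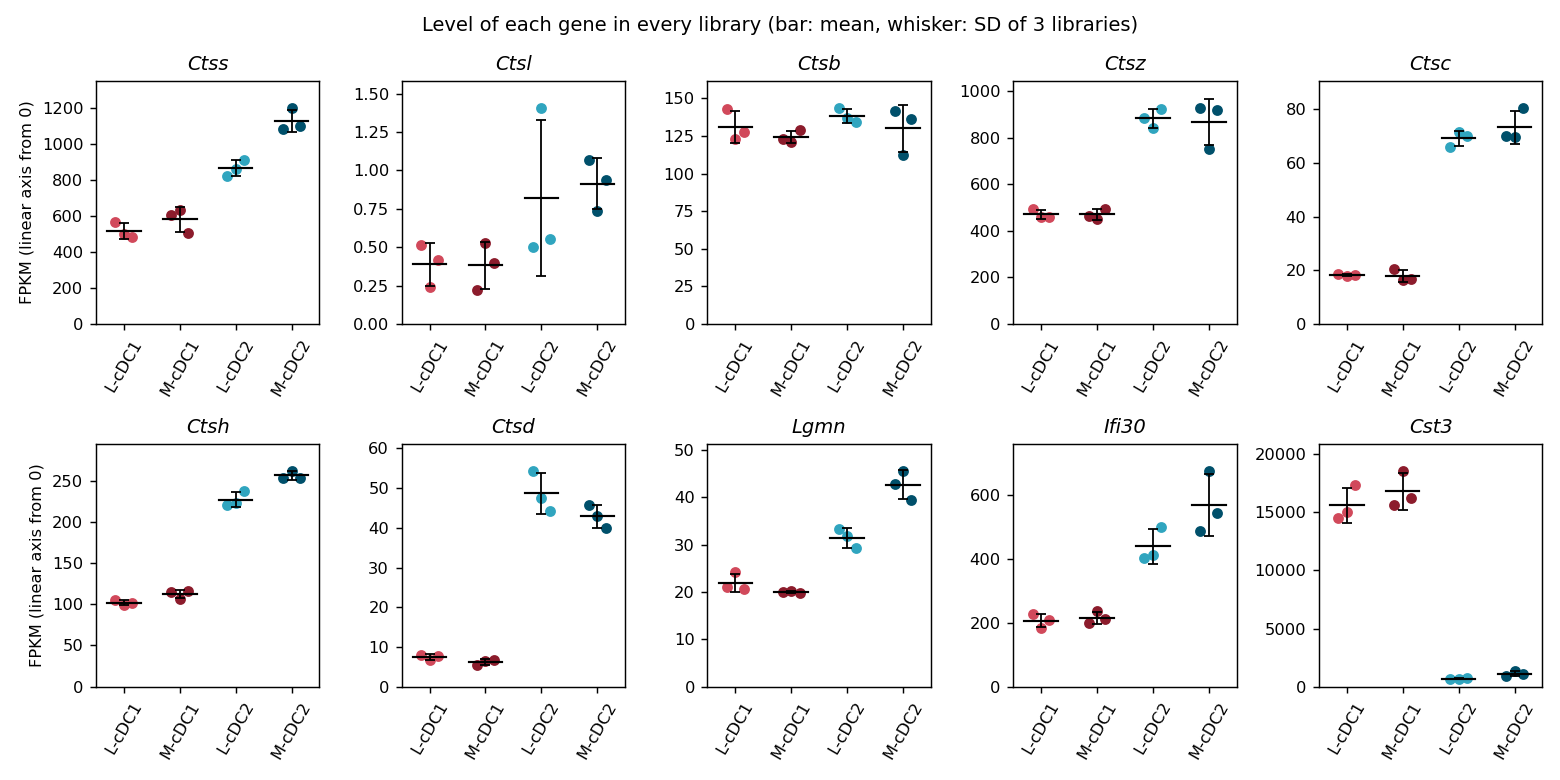
FPKM of each of the 10 genes (linear axes from 0, a scale of its own per gene) in the 12 libraries; each point is a library, the bar the mean and the whisker the SD of 3. In 8 panels the cDC1 points lie wholly to 1 side of the cDC2 points, with Cst3 the gene that is high in cDC1s, while Ctsb and Ctsl overlap.

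Ctss, on chromosome 3 (95434097 to 95463714, plus strand, in the coordinates of the deposited table), was the most abundant protease RNA per length in M-cDC1, M-cDC2 and L-cDC1 by group mean, and Ctsz was in L-cDC2. It stood at 567, 500 and 482 FPKM in the 3 L-cDC1 libraries, at 603, 633 and 503 in M-cDC1, at 820, 861 and 911 in L-cDC2 and at 1083, 1197 and 1095 in M-cDC2. The cDC1 groups overlapped each other, and every cDC2 library lay above every cDC1 library. The M-cDC1 minus M-cDC2 difference was -0.96 (SE 0.101, limma adjusted p = 4.13e-06), and the L-cDC1 minus L-cDC2 difference was -0.74 (SE 0.101, limma adjusted p = 4.86e-05). The order of the group means was M-cDC2, L-cDC2, M-cDC1 and L-cDC1, with ratios between neighbours of 1.303, 1.49 and 1.12.

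Ctsz encodes a carboxypeptidase that removes single residues from protein ends (chromosome 2, 174269286 to 174280832, minus strand). Its 6 cDC1 libraries ran from 451 to 495 FPKM and its 6 cDC2 libraries from 753 to 928. Both cDC1 groups had a mean of 470 FPKM (SD 18.6 in L and 22.8 in M, n = 3 each), against 884 ± 40.6 (SD, n = 3) in L-cDC2 and 867 ± 98.6 (SD, n = 3) in M-cDC2. The subset difference was -0.88 within M (SE 0.0923, limma adjusted p = 4.45e-06) and -0.91 within L (limma adjusted p = 3.10e-06). The level thus differed by subset, and L and M overlapped within each subset.

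Ctsh, an aminopeptidase (chromosome 9, 89936205 to 89958142, plus strand), had libraries at 105, 98.8 and 102 FPKM in L-cDC1 and at 114, 107 and 117 in M-cDC1. In L-cDC2 they stood at 221, 224 and 237, and in M-cDC2 at 254, 262 and 254. No 2 groups overlapped, in the order M-cDC2, L-cDC2, M-cDC1 and L-cDC1. The difference between subsets was -1.18 within M (SE 0.0777, limma adjusted p = 3.50e-08) and -1.15 within L (limma adjusted p = 4.41e-08). The steps between L and M were far smaller, with ratios of means of 1.13 in cDC2s and 1.11 in cDC1s, and neither was called.

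Ctsc, the dipeptidyl peptidase that activates the serine proteases of lymphocyte and myeloid granules (chromosome 7, 87927293 to 87960096, plus strand), was low in cDC1s. L-cDC1 held 18.5, 17.9 and 18.2 FPKM and M-cDC1 20.5, 16.4 and 16.6, against 66.0, 71.6 and 69.9 in L-cDC2 and 69.8, 69.5 and 80.5 in M-cDC2. The cDC2 libraries stood 4.11-fold higher within M and 3.81-fold higher within L, and L and M overlapped in each subset. The log2 differences of cDC1 minus cDC2 were -1.98 within M (SE 0.109, limma adjusted p = 5.43e-09) and -1.87 within L (limma adjusted p = 9.63e-09). Of a list of 8 granule proteases, some of which it activates, Gzma alone was high enough to be tested, and it is described with the L and M groups.

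Ctsb, a cathepsin that both cuts within chains and trims their ends (chromosome 14, 63359911 to 63383372, plus strand), was the exception. The L-cDC1 libraries held 143, 123 and 128 FPKM and the M-cDC1 libraries 123, 121 and 129. The L-cDC2 libraries held 144, 137 and 134 and the M-cDC2 libraries 142, 112 and 136, and all 4 groups overlapped their neighbours in level. The cDC1 minus cDC2 difference was -0.06 within M (95% interval -0.28 to 0.16, limma adjusted p = 0.686) and -0.08 within L (95% interval -0.30 to 0.14, limma adjusted p = 0.565). The sign of both turned under median-of-ratios scaling, to 0.14 and 0.12. In the coordinates of the deposited table, the longest exon stretch that Ctsb shares with Fdft1, on the opposite strand, is 774 bases. The kit does not mark strand, so reads there cannot be assigned, and Fdft1 was listed at 5.34 to 8.73 FPKM.

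Ctsl (chromosome 13, 64507151 to 64518704, minus strand), which takes the role of cathepsin S in the thymic epithelium, was almost silent. It had 32 to 199 reads per library over 6489 bases. The L-cDC1 libraries were listed at 0.513, 0.238 and 0.419 FPKM and the M-cDC1 libraries at 0.220, 0.526 and 0.400. The cDC2 libraries were listed at 0.505, 1.41 and 0.552 in L-cDC2, and 1.07, 0.738 and 0.938 in M-cDC2. The groups of L overlapped across subsets, and those of M did not. In a fit without the filter the M-cDC1 minus M-cDC2 difference was -0.47 (limma adjusted p = 0.184) and the L-cDC1 minus L-cDC2 difference -0.36 (limma adjusted p = 0.331), so no difference was called at this depth. Of the summed FPKM of the 6 cysteine cathepsins Ctsl held 0.0312% in L-cDC1, 0.0293% in M-cDC1, 0.0379% in L-cDC2 and 0.0372% in M-cDC2.

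Ctsd, the aspartic protease that starts the breakdown of bulk protein in lysosomes (chromosome 7, 141929648 to 141941775, minus strand), had the widest gap between subsets of the 8 proteases among the 10 genes. L-cDC1 libraries stood at 7.92, 6.65 and 7.80 FPKM and M-cDC1 libraries at 5.42, 6.52 and 6.80. L-cDC2 libraries stood at 54.4, 47.6 and 44.3 and M-cDC2 libraries at 45.8, 43.0 and 39.99. The lowest cDC2 library (39.99) thus lay far above the highest cDC1 library (7.92). The difference was -2.60 within M (SE 0.126, limma adjusted p = 1.43e-09) and -2.56 within L (limma adjusted p = 1.65e-09), which placed Ctsd 247th and 266th from the bottom of 12434 genes. L and M overlapped in each subset.

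Lgmn (chromosome 12, 102360343 to 102406072, minus strand) was, of these 8 proteases, the one in which L and M stood furthest apart within cDC2s on the log2 scale. The L-cDC1 libraries held 21.03, 24.1 and 20.6 FPKM and the M-cDC1 libraries 20.0, 20.3 and 19.8. The cDC2 libraries held 33.4, 31.9 and 29.2 in L-cDC2, and 42.7, 45.6 and 39.5 in M-cDC2. No groups overlapped, and the steps from M-cDC2 down to L-cDC2, L-cDC1 and M-cDC1 were 1.35-fold, 1.44-fold and 1.09-fold. The subset difference was -1.05 within M (SE 0.105, limma adjusted p = 2.71e-06) and -0.50 within L (limma adjusted p = 0.00177). The call within L ended with limma-voom on the recovered reads (adjusted p = 0.0715).

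Ifi30 (chromosome 8, 71215419 to 71219307, minus strand) was again the higher in cDC2s. L-cDC1 libraries stood at 226, 184 and 208 FPKM and M-cDC1 libraries at 198, 235 and 212. L-cDC2 libraries stood at 404, 411 and 500 and M-cDC2 libraries at 487, 675 and 543. The subsets did not overlap, and L and M overlapped within each. The difference was -1.39 within M (SE 0.130, limma adjusted p = 1.43e-06) and -1.08 within L (limma adjusted p = 1.64e-05). Per length, its level relative to Ctss was 0.399 in L-cDC1, 0.374 in M-cDC1, 0.506 in L-cDC2 and 0.503 in M-cDC2, as means of the library ratios.

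Cst3 (chromosome 2, 148713642 to 148717612, minus strand) was among the most abundant RNAs of the cDC1s. The L-cDC1 libraries held 14495, 15019 and 17331 FPKM and the M-cDC1 libraries 15598, 18583 and 16238. The L-cDC2 libraries held 635, 678 and 774.5 and the M-cDC2 libraries 919, 1340 and 1052. In each of the 6 cDC1 libraries it ranked 2nd of all genes by FPKM, behind Cd74, the invariant chain, and by group mean it ranked 36th in L-cDC2 and 20th in M-cDC2. It made up 1.98% of reads in L-cDC1, 2.13% in M-cDC1, 0.0881% in L-cDC2 and 0.140% in M-cDC2. The difference between subsets was 3.94 within M (SE 0.133, limma adjusted p = 4.32e-11) and 4.49 within L (limma adjusted p = 1.16e-11), ranking 49th and 32nd from the top of 12434 genes.

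**Figure D2:**
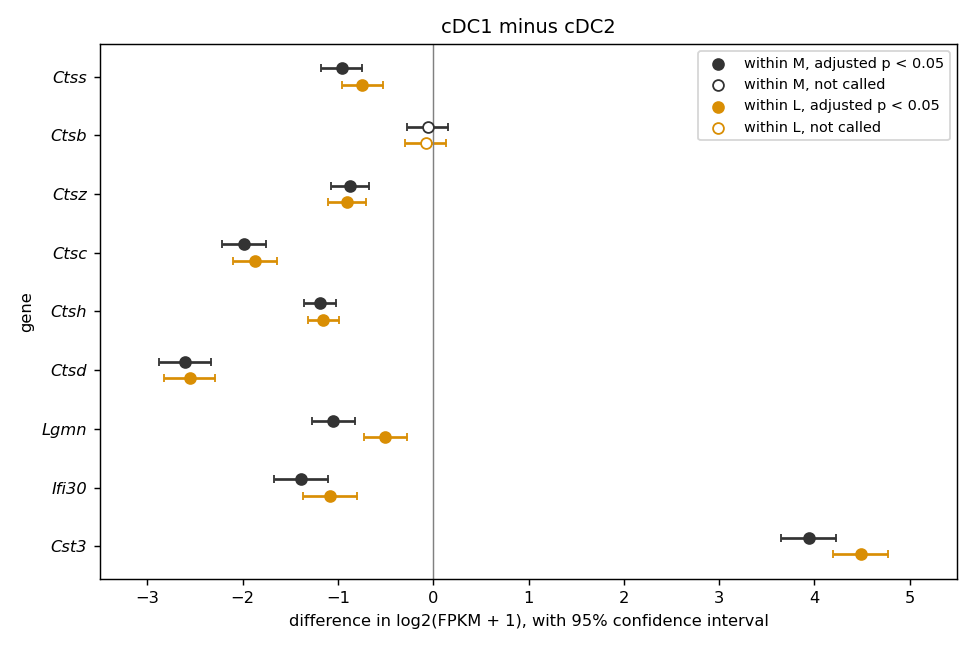
Difference of cDC1 minus cDC2 in log2(FPKM + 1) for the 9 tested genes, within M and within L, with 95% confidence intervals from limma; filled points passed an adjusted p of 0.05. Cst3 stands at 3.94 and 4.49, Ctsb spans 0, and the other points lie between -2.60 and -0.50.

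Set against its targets, the inhibitor differed between subsets far more than their sum did. The 6 cysteine cathepsins added up to 1239 ± 75.9 FPKM (SD, n = 3) in L-cDC1, 1305 ± 38.4 (SD, n = 3) in M-cDC1, 2183 ± 82.0 (SD, n = 3) in L-cDC2 and 2453 ± 50.1 (SD, n = 3) in M-cDC2. The ratio of Cst3 to that sum was 12.7 ± 1.83 (SD, n = 3) in L-cDC1 and 12.9 ± 1.11 (SD, n = 3) in M-cDC1, and 0.318 ± 0.0211 (SD, n = 3) in L-cDC2 and 0.451 ± 0.0974 (SD, n = 3) in M-cDC2. By reads, without division by gene length, the ratios were 7.25, 7.52, 0.187 and 0.272. Cst3 RNA thus outnumbered the cathepsin RNAs in each cDC1 library and was outnumbered by them in each cDC2 library, on both scales. These sums describe RNA, and no test was made on them.

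**Figure D3:**
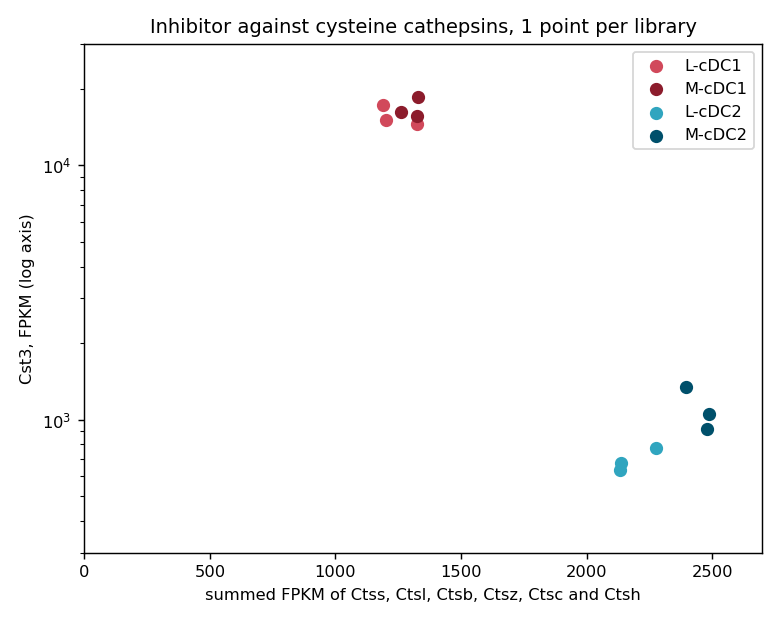
Cst3 FPKM (log axis) against the summed FPKM of the 6 cysteine cathepsins (linear axis from 0), with 1 point per library in 4 group colours. The 6 cDC1 points sit at the upper left, with ratios from 10.9 to 14.6, and the 6 cDC2 points at the lower right, with ratios from 0.298 to 0.560.

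The make-up of the cysteine cathepsin pool was led by the same genes in all groups. Ctss and Ctsz made up 41.7% and 38.0% of the sum in L-cDC1, 44.3% and 36.1% in M-cDC1, 39.5% and 40.5% in L-cDC2, and 45.9% and 35.3% in M-cDC2. Ctsb took 10.6% and 9.54% in L-cDC1 and M-cDC1 but 6.35% and 5.30% in L-cDC2 and M-cDC2. Ctsh took 8.22% and 8.64% in the cDC1 groups and 10.4% and 10.5% in the cDC2 groups, and Ctsc took 1.47% and 1.37% against 3.17% and 2.99%. The ratio of Ctsd to Ctsb was 0.0569 in L-cDC1, 0.0502 in M-cDC1, 0.352 in L-cDC2 and 0.333 in M-cDC2. All 10 genes together took 2.28% of reads in L-cDC1 and 2.44% in M-cDC1, but 0.621% in L-cDC2 and 0.731% in M-cDC2, most of it Cst3 in the cDC1 groups (91.3% and 91.5% of their summed FPKM).

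Within cDC2s, Cst3 was 1.59-fold higher in M than in L by the ratio of means, with no overlap. It was the only one of the 9 called (-0.65 as L-cDC2 minus M-cDC2, SE 0.133, limma adjusted p = 0.0204), where 1.83% of all genes were called, 1.04% higher and 0.788% lower in L-cDC2. The call ended without L-cDC2 replicate 1 (adjusted p = 0.1003) or 2 (0.0886), without M-cDC2 replicate 2 (0.0740) or 3 (0.0683), with the cDC2 libraries fitted alone (0.124) and without the filter on low genes (0.349), all by limma. Lgmn (-0.43, limma adjusted p = 0.0643) and Ctss (-0.38, limma adjusted p = 0.0907) missed the threshold. Lgmn passed it after median-of-ratios scaling (0.0431), after quantile normalization (0.0475) and without the filter (0.0438), and Ctss with limma-voom on recovered reads (0.0266) and, narrowly, without M-cDC1 replicate 3 (0.0499547). Every L-cDC2 library lay below every M-cDC2 library for Cst3, Lgmn, Ctss and Ctsh, which is 4 of 9 genes, against 6.92% of all genes tested that were lower without overlap and 9.96% that were higher.

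Ifi30 stood at -0.37 (limma adjusted p = 0.275), a difference close in size to that of Ctss, with groups that overlapped. Of the 9 genes, 5 had an unadjusted limma p under 0.05 in this comparison (Cst3, Lgmn, Ctss, Ifi30 and Ctsh). No share of all genes tested was counted at an unadjusted p under 0.05, here or in the comparisons below. Counts at that threshold therefore have no background beside them. Ctsh stood at -0.18 (limma adjusted p = 0.458), Ctsd at 0.18 (limma adjusted p = 0.710), Ctsb at 0.09, Ctsc at -0.08 and Ctsz at 0.03. The median of the 9 was -0.18, beside 0.03 for all genes tested. M-cDC2 replicate 2 was the library furthest from its group: it had the highest Cst3 (0.30 above the group mean on the log2 scale), Ifi30, Lgmn, Ctss and Ctsh of M-cDC2 and the lowest Ctsz and Ctsb (-0.20 each).

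Within cDC1s, L and M were not told apart by these genes. None of the 9 was called by limma with adjustment, none had an unadjusted p under 0.05, and limma-voom on the recovered reads called none, with 1 under an unadjusted 0.05; 0.394% of all genes tested were called, 0.354% higher and 0.0402% lower in L-cDC1. Differences ran from -0.16 for Ctss (95% interval -0.38 to 0.06) to 0.22 for Ctsd (95% interval -0.05 to 0.50), and that of Cst3 was -0.11 (95% interval -0.39 to 0.18). The intervals do not show that the groups are alike. Ctsh was lower and Lgmn higher in L-cDC1 without overlap, against 5.63% and 8.28% of all genes tested in these directions.

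The difference between the subsets in how L and M differ, tested as an interaction, was called for none of the 9 by limma or by limma-voom, against 0.298% of all genes tested (0.193% higher and 0.105% lower). It had an unadjusted limma p under 0.05 for 2 of them, with no share of all genes counted at that threshold. Those were Lgmn (0.55, 95% interval 0.23 to 0.87, limma adjusted p = 0.245) and Cst3 (0.55, 95% interval 0.14 to 0.95, limma adjusted p = 0.411). The lower Cst3 of L-cDC2 is therefore not shown to be particular to cDC2s.

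**Figure D4:**
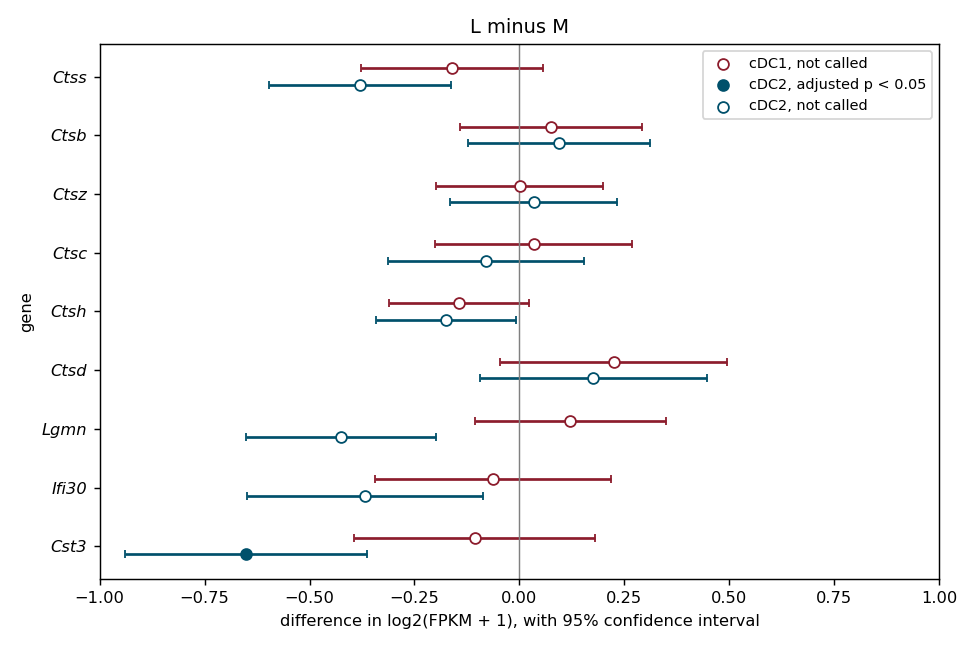
Difference of L minus M in log2(FPKM + 1) for the 9 tested genes, within cDC1 and within cDC2, with 95% confidence intervals from limma; filled points passed an adjusted p of 0.05. Only Cst3 within cDC2 is filled, at -0.65, and each of the 9 cDC1 intervals spans 0.

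Markers of other cells moved with some of these comparisons. Summed FPKM of 12 macrophage markers was 16.4 to 38.8 in L-cDC1 and 25.2 to 41.5 in M-cDC1, but 106 to 120 in L-cDC2 and 137 to 159 in M-cDC2. Most of it was Adgre1 (90.3 to 134 in cDC2 libraries), while Mertk was at 0 in all cDC1 libraries and at most 0.559 in cDC2s, and Marco was at most 0.305. Of 8 tested, 2 were higher and 5 lower in M-cDC1 than in M-cDC2, and 2 higher and 4 lower within L. Over all genes tested 12.7% were higher and 25.4% lower within M, and 12.9% and 26.6% within L. Macrophages and monocytes also express cathepsins, and the part of these cells in the subset differences was not tested.

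Summed FPKM of 10 monocyte markers was 365 to 369 in L-cDC1, 459 to 518 in M-cDC1, 336 to 481 in L-cDC2 and 991 to 1203 in M-cDC2. Within cDC2s, 5 of 8 tested were lower in L, among them Lyz2 at 182 to 351 against 804 to 1021 FPKM. Over all genes tested 0.788% were called lower in L-cDC2. Summed FPKM of 10 B cell markers was higher in L, at 583 to 909 against 304 to 351 in cDC1s and 859 to 3191 against 351 to 377 in cDC2s, with 6 and 7 of 8 tested markers called. For 11 T and NK cell markers it was 11.4 to 20.96 against 0.504 to 0.973 in cDC1s and 40.4 to 106 against 2.08 to 2.69 in cDC2s, with 3 and 6 of 8 called. All of these B, T and NK cell calls were higher in L. Over all genes tested 0.354% were called higher in L-cDC1 and 1.04% in L-cDC2. Pax5, which defines B cells, was at 0 in M-cDC1 and M-cDC2, and Cd3g in the same 2 groups. Markers of cDC1s themselves, in which Cst3 and Psap are high, also differed within cDC2s. Summed FPKM of the 8 was 66.6 to 77.6 in L-cDC2 and 80.8 to 84.2 in M-cDC2, beside 1348 to 1433 in cDC1 libraries. Most of it was Batf3 (51.1 to 61.7 and 57.9 to 65.1 FPKM), and Clec9a alone was called, lower in L-cDC2 (0.535 to 0.864 against 1.68 to 2.88 FPKM). Of the 8 cDC2 markers, Cd209a alone was called, lower in L-cDC2 (157 to 186 against 313 to 382 FPKM). Among the uncalled, Clec10a was higher in L-cDC2 without overlap (3.47 to 6.39 against 1.67 to 2.39 FPKM). Sirpa, Irf4 and Itgam were lower without overlap, while Clec4a4, Esam and Cd4 overlapped. Over all genes tested 9.96% were higher and 6.92% lower in L-cDC2 without overlap. Plasmacytoid dendritic cell markers summed to 78.5 to 117 FPKM in L-cDC2 and 43.6 to 47.7 in M-cDC2, with 1 of 5 tested (Ly6d) higher in L. The part of these markers in the lower Cst3 of L-cDC2 was not tested.

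Summed FPKM of 8 neutrophil markers was at most 2.55. Erythroid markers stood at 21.99 to 50.5 in cDC1 libraries and at most 5.29 in cDC2 libraries. Of these, 4 of 4 tested were higher in cDC1s within M and within L, beside 12.7% and 12.9% of all genes tested. The part of erythroid markers in the subset differences was not tested. Summed plasma cell markers stood at 71.5 to 124, with 1 of 5 tested higher in L in both subsets, and stromal and endothelial markers at 12.5 to 26.3. In cDC1s the plasmacytoid dendritic cell markers stood at 70.0 to 89.7 in L and 61.4 to 72.5 in M.

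Among the other lysosomal proteases, 13 genes of which 10 were tested, 3 were higher and 6 lower in M-cDC1, and 3 higher and 5 lower in L-cDC1. Their median differences were -0.47 and -0.68, beside -0.18 and -0.19 for all genes tested. Over all genes tested 12.7% were called higher and 25.4% lower in M-cDC1, and 12.9% and 26.6% in L-cDC1. Ctsa, a carboxypeptidase that also stabilises lysosomal glycosidases, was at 37.3 ± 2.34 FPKM (SD, n = 3) in M-cDC1 and 207 ± 18.7 (SD, n = 3) in M-cDC2 (-2.44 within M and -2.46 within L, limma adjusted p = 4.44e-10 and 4.26e-10). Tpp1, a tripeptidyl peptidase, and Ctso, a cysteine cathepsin, were also lower in cDC1s, at -1.28 and -1.32 within M. Cpq, a secreted carboxypeptidase, went the other way, at 20.8 ± 2.18 FPKM (SD, n = 3) in M-cDC1 and 1.33 ± 0.155 (SD, n = 3) in M-cDC2 (3.22, limma adjusted p = 4.68e-09). Under median-of-ratios scaling 3 were higher and 4 lower within M, beside 2176 higher and 2271 lower of all 12434 genes tested.

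Of 12 further inhibitors of cysteine proteases, 11 were in the table and 3 were tested. Of the 3, Cstb alone reached 1 FPKM in all 12 libraries. Ctla2b reached it in cDC1 libraries only, and Cst7 in 6 cDC2 and 2 cDC1 libraries. These 2 thus passed the filter through the subset in which they are high, and their values are given without a test. Cst7, cystatin F, an inhibitor that acts inside endosomes and lysosomes, was at 0.0942 ± 0.117 FPKM (SD, n = 3) in M-cDC1 and 12.6 ± 3.81 (SD, n = 3) in M-cDC2, the reverse of Cst3 (-3.60 within M and -2.24 within L). Ctla2b, related to a cathepsin propeptide, averaged 1.83 FPKM across M-cDC1 and 0.0158 across M-cDC2 (a difference of 1.47). Cstb, a cytosolic inhibitor, was called higher in cDC1s, by 0.59 within M and 0.60 within L (limma adjusted p = 0.00728 and 0.00579). Values as low as those of Ctla2b depend on the pseudocount of 1, which understates their change.

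Genes that carry enzymes to the lysosome were split, with 4 higher and 4 lower of 12 tested in M-cDC1 and 4 higher and 5 lower in L-cDC1 (median -0.19 within M and -0.29 within L). Among all genes tested, 12.7% were higher and 25.4% lower within M, and 12.9% and 26.6% within L, with medians of -0.18 and -0.19. Psap, the precursor of the saposins that help break down sphingolipids, was 4073 ± 458 FPKM (SD, n = 3) in M-cDC1, 868 ± 91.2 (SD, n = 3) in M-cDC2, 4172 ± 98.3 (SD, n = 3) in L-cDC1 and 322 ± 54.3 (SD, n = 3) in L-cDC2. The differences were 2.23 within M and 3.704 within L (limma adjusted p = 6.39e-09 and 3.52e-11). Grn, the progranulin gene, Igf2r, the larger mannose 6-phosphate receptor, and Scarb2, the receptor for glucocerebrosidase, were higher as well, by 0.96, 1.90 and 1.04 within M. Igf2r reached 1 FPKM in cDC1 libraries only, so it passed the filter through the subset in which it is high. Its call is counted above but carries no weight. Within cDC2s, 2 of the 12 were called, Psap (-1.44, limma adjusted p = 2.85e-05) and Scarb2 (-0.71, limma adjusted p = 0.0228), both lower in L. Over all genes tested 1.04% were called higher and 0.788% lower in L-cDC2. The median of the 12 was 0.155, beside 0.03 for all genes tested. M6pr was higher in L-cDC2 and missed the threshold (0.36, limma adjusted p = 0.0640), and passed it with the replicate block (0.0476). The cDC1 marker Clec9a was lower in L-cDC2 as well, and its part was not tested. The Scarb2 call ended in a fit of cDC2s alone (limma adjusted p = 0.145) and when L-cDC2 replicate 1 or 2 or M-cDC2 replicate 2 or 3 was left out, while that of Psap held under all alternatives run.

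Of 9 tested membrane proteins and regulators of lysosomes, 8 were lower in M-cDC1 and 5 in L-cDC1, and none was higher (median -0.68 within M and -0.53 within L), where 25.4% and 26.6% of all genes tested were lower. Tfeb, the transcription factor that switches on lysosomal genes, was at 5.60 ± 0.943 FPKM (SD, n = 3) in M-cDC1 and 24.6 ± 0.321 (SD, n = 3) in M-cDC2 (-1.96 within M and -1.68 within L, limma adjusted p = 3.16e-08 and 1.56e-07). Cd68 was lower by a smaller margin (-0.66 and -0.53), as was Laptm5 (-0.49 and -0.37), whose call within L ended under median-of-ratios scaling (limma adjusted p = 0.134) and with limma-voom on recovered reads (adjusted p = 0.0775). Lamp1 was called within M (-2.86) and not within L (-0.63, limma adjusted p = 0.249), and its libraries varied widely (SD 27.1 around 58.6 FPKM in M-cDC2). With median-of-ratios scaling 6 and 3 of the 9 were called lower within M and within L. Of all 12434 genes tested 2271 and 2370 were lower at that scaling, and 3163 and 3308 as fitted. With quantile normalization 6 and 4 were called lower, beside 1967 and 2098 of all genes. Then 1 was higher within L, beside 2330 of all genes.

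The proton pump, which acidifies the compartment in which these proteases work, had 4 of 16 tested subunits higher and 2 lower in M-cDC1 and 3 higher and 2 lower in L-cDC1, with medians of 0.08 and -0.02 that were 0.27 and 0.17 after median-of-ratios scaling. Over all genes tested 38.1% were called within M (12.7% higher and 25.4% lower) and 39.5% within L (12.9% higher and 26.6% lower). Atp6v0a2 was the most different (1.71 within M, limma adjusted p = 2.87e-08), and Atp6v0c went the other way (-0.76, limma adjusted p = 8.08e-05). Of 10 class II and invariant chain genes, 4 were higher and 3 lower in M-cDC1, and 6 higher and 3 lower in L-cDC1 (median 0.12 within M and 0.34 within L). The shares of all genes tested were 12.7% higher and 25.4% lower in M-cDC1, and 12.9% and 26.6% in L-cDC1. The class II splits turned to 1 higher and 6 lower, and 2 higher and 5 lower, under quantile normalization. At that setting 2253 of all 12434 genes tested were higher and 1967 lower within M, and 2330 and 2098 within L. H2-DMb2 was lower (-1.95 and -1.74) and H2-DMb1 higher (0.85 and 1.199) in cDC1s. Both are beta chains of H2-DM, which exchanges peptides on class II, and as close paralogs they may share reads.

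Among 6 endosomal sensors that cathepsins cut or that travel with them, 1 was higher and 2 lower in M-cDC1, and 1 higher and 1 lower in L-cDC1. Beside these, 12.7% of all genes tested were higher and 25.4% lower in M-cDC1, and 12.9% and 26.6% in L-cDC1. Tlr3, the sensor of double-stranded RNA, which is also one of the cDC1 markers used above, averaged 70.0 FPKM across M-cDC1 and 2.18 across M-cDC2 (4.48, limma adjusted p = 4.84e-11). Tlr7, the sensor of single-stranded RNA, was at 0.0340 and 15.4 FPKM (a difference of -3.96). Both genes lower in M-cDC1 passed the filter through cDC2s: Tlr7 reached 1 FPKM in 6 cDC2 libraries and 1 cDC1 library, and Tlr8 in the 3 M-cDC2 libraries only. Their calls, and that of Tlr7 within L, are counted above but carry no weight.

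**Figure D5:**
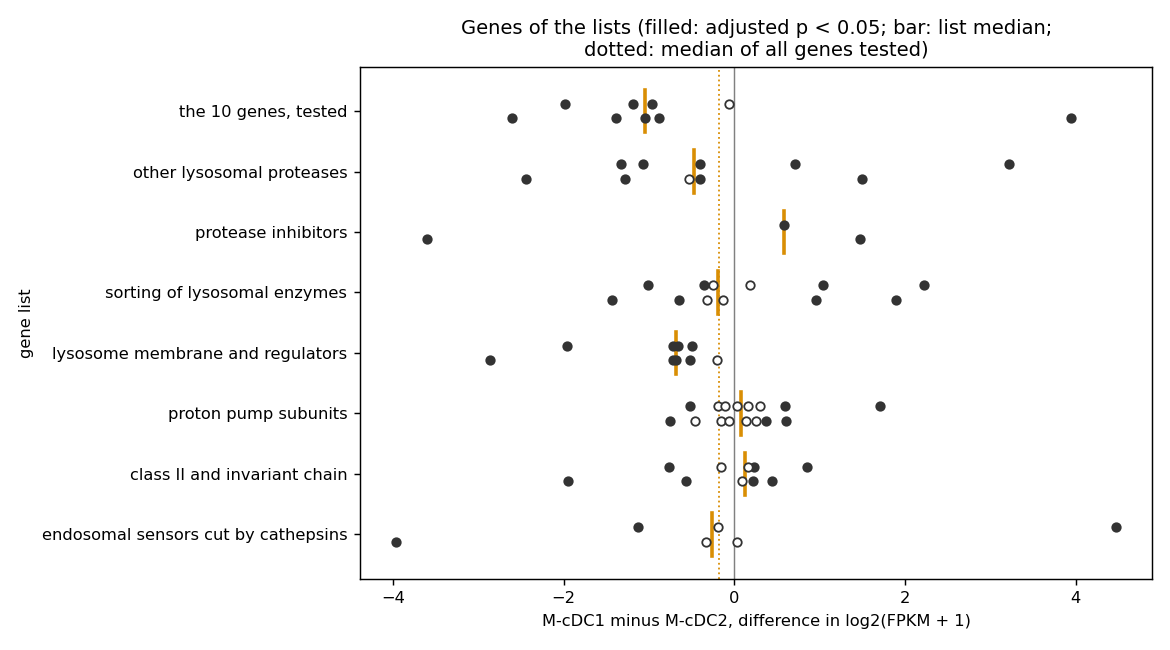
Difference of M-cDC1 minus M-cDC2 in log2(FPKM + 1) for the tested genes of 8 groups, with 1 point per gene, filled where the limma adjusted p was under 0.05; the bar is the group's median and the dotted line the median of all genes tested (-0.18). The 9 tested cathepsin-system genes have a median of -1.05 with Cst3 alone on the right, and the lysosome membrane and regulator genes lie wholly below 0.

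Between L-cDC1 and M-cDC1 no gene of the 8 lists was called by limma as fitted here or by limma-voom. Over all genes tested 0.394% were called as fitted, a share at which lists this short can hold none. Lamp1 came nearest, at 31.0 ± 15.1 FPKM (SD, n = 3) in L-cDC1 and 7.25 ± 4.62 (SD, n = 3) in M-cDC1 (1.996, limma adjusted p = 0.0629). It was called under 4 of the alternatives run, which were a mean of at least 10 FPKM (limma adjusted p = 0.0408) and leaving out L-cDC1 replicate 1 (0.0486), M-cDC1 replicate 1 (0.0138) or M-cDC2 replicate 1 (0.0263). Unadjusted limma p-values under 0.05 numbered 3 of 9 for the lysosome membrane genes, 2 of 12 for sorting and 2 of 10 for class II. They numbered 1 of 10 for the other proteases, 1 of 3 for the inhibitors and 0 in the proton pump, sensor and granule lists. No share of all genes tested was counted at that threshold. Between L-cDC2 and M-cDC2 the calls outside the sorting list were Ctsw and Gzma, both of cytotoxic lymphocytes and both higher in L. There 1.04% of all genes tested were called higher and 0.788% lower. Ctsw was at 5.504 ± 2.26 FPKM (SD, n = 3) in L-cDC2 and 0.803 ± 0.195 (SD, n = 3) in M-cDC2 (a difference of 1.79), a call that ended under 8 of the alternatives run. Gzma, 1 of the T and NK cell markers summed above, was at 18.5 ± 11.9 FPKM (SD, n = 3) in L-cDC2 and listed at 0 in M-cDC2. It reached 1 FPKM in 3 L-cDC2 and 2 L-cDC1 libraries alone, and Ctsw in 3 L-cDC2 libraries and 1 L-cDC1 library. Both were thus tested through the L groups, where they are high, and their calls carry no weight. H2-Aa narrowly missed the threshold, lower in L-cDC2 (-0.31, limma adjusted p = 0.0523), and was called under 3 of the alternatives run. H2-Eb1 (-0.27) was called under 2, and H2-DMb1 (-0.36) and Cpq (-0.53) under 1 each. In the class II list H2-Ob (0.27), H2-DMb2 (0.11), H2-Oa (0.04) and Ciita (0.00097) stood above 0, uncalled.

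The genes whose values followed each of these most closely over the 12 libraries were taken by the root mean square distance between centred log2(FPKM + 1) values. For Cst3 they were Plin2 (0.225), which coats lipid droplets, Mpeg1 (0.269), a pore-forming protein of phagocytes, and Cxcl9 (0.271), a chemokine. For Ctsd they were Fyb (0.118), Nfkb1 (0.141) and Ggt5 (0.146), and for Ctsc Arhgap9 (0.147), Trps1 (0.150) and Lta4h (0.151). For Ctsz they were Msn (0.0689), Oard1 (0.0814) and H2-Oa (0.0833), and for Ctsh Slc15a3 (0.0634), Dnah2 (0.0944) and Hsd17b4 (0.0976). St3gal4 was among the nearest of both Ctss (0.119) and Lgmn (0.125), beside Pdha1 (0.126) and Ttc17 (0.134) for Ctss and Vrk1 (0.121) and Ccdc47 (0.141) for Lgmn. Ifi30 was followed by Gmfg (0.122), Tspan14 (0.128) and Otulinl (0.134). The distance measures only how alike the values are in these 12 libraries.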

How the data were processed

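Total RNA of 12 libraries was copied and sequenced with SMART-Seq HT and Nextera XT kits, which do not mark strand, per the labels' protocols. The authors deposited FPKM values with gene lengths; per the submitters' processing notes the tools were STAR 2.7.9a, featureCounts 2.0.1, DESeq2 1.20.0, cutadapt 3.7, Trimmomatic 0.39 and Trim Galore 0.6.7, in no stated role or order, and the build is given as the human GRCh38. The build of the table's coordinates is not given in the sources used here, and 0 of the 10 genes start where GENCODE M21 (GRCm38) starts them. All deposited FPKM values were whole multiples of 1 read within 0.01 read (100% of values), so reads could be recovered. On 1 kb, 3 reads were worth 0.122 to 0.189 FPKM, which covers counting error only. Replicates differed by a chi-square of 21.1 to 38.0 per gene, so none was a duplicate.

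Genes with 1 FPKM in at least 3 of 12 libraries were fitted as log2(FPKM + 1), which understates changes of low genes, with limma 3.58.1 in R 4.3.3 (4 group means, 8 residual degrees of freedom, intensity trend, 5 contrasts). P-values were adjusted by Benjamini-Hochberg over all genes tested. The members, 8 gene lists, 12 marker lists and alternatives were chosen with earlier results of these data known. The text names the 10 members, up to 4 called genes per list and contrast with the smallest p, and the 3 nearest genes of each called member. The fit was tried on simulated counts in which genes were changed in L-cDC1 alone. That setting is unlike the subset comparisons here, where 38.1% and 39.5% of genes were called, and does not bear on those calls. An exact test of 3 against 3 cannot go below p = 0.1 and was not used.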

Additional observations from a re-analysis of the deposited data

Results flagged for a closer look

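In the lists around these proteases, 2 genes differed between the subsets in how L compared with M, by the interaction test of limma with Benjamini-Hochberg adjustment. Psap had a difference of L minus M that was 1.48 higher in cDC1s than in cDC2s (adjusted p = 0.00581): L and M stood at 4172 and 4073 FPKM in cDC1s and at 322 and 868 FPKM in cDC2s. Without the filter on low genes its adjusted p was 0.0589. Gzma had a difference that was lower in cDC1s (-3.198, adjusted p = 0.0426), at 1.099 and 0.0148 FPKM in L-cDC1 and M-cDC1 and at 18.5 and 0 FPKM in L-cDC2 and M-cDC2. It reached 1 FPKM only in the 3 L-cDC2 and 2 of the L-cDC1 libraries, so it entered the test through the groups in which it is high. The call of Gzma therefore carries no weight. Gzma missed the threshold under 16 of the 18 alternatives run, among them a pseudocount of 0.1 (limma adjusted p = 0.282), the replicate block (0.0795) and limma-voom on recovered reads (0.552). The part of the T and NK cell markers, which were also higher in L-cDC2, was not tested.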

How the results depend on the processing

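Of 891 member differences under the alternatives run, 845 kept their direction and their side of the threshold. Each call between the subsets held but for Lgmn within L with limma-voom on recovered reads, an alternative chosen after seeing the data because edgeR and DESeq2, planned for these reads, were not run. Members called lower in L-cDC2 than in M-cDC2 numbered 1 as reported, 2 after median-of-ratios scaling, 2 after quantile normalization, 2 with limma-voom, 0 with the groups compared only, and 0 to 2 leaving out 1 library. Several alternatives used fewer libraries or genes, and the cause of the changes in the counts of all genes called was not tested. For L-cDC1 minus M-cDC1 the count was 49, and 80 with a pseudocount of 0.1, 14 without the filter, 17 with the groups compared only and 24 to 102 leaving out 1 library. For L-cDC2 minus M-cDC2 it was 227, and 137 with the groups compared only, 77 for genes with a mean of at least 10 FPKM and 146 (without M-cDC2 replicate 2) to 232 leaving out 1 library. Between the subsets it was 4736 within M and 4913 within L, and 2348 and 2206 with the adjustment redone over the 4498 genes with that mean. For the interaction it was 37, and 21 with a pseudocount of 0.1, 21 at that mean, 9 with limma-voom and 10 (without M-cDC2 replicate 2) to 38 leaving out 1 library. The ratio of Cst3 to the cysteine cathepsins by reads was 7.25, 7.52, 0.187 and 0.272.

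The 34 differences that changed sign were all uncalled and near 0. For L-cDC1 minus M-cDC1, Ctsc was -0.00021 (median-of-ratios), -0.0091 (quantile), -0.0051 (limma-voom) and -0.020 to 0.13 leaving out 1 library. Ctsz was -0.035 (median-of-ratios), -0.036 (limma-voom) and -0.032 to 0.039 leaving out 1 library, and Ifi30 was 0.045 (quantile) and -0.13 to 0.016. For L-cDC2 minus M-cDC2, Ctsz was -7.8e-05 (median-of-ratios), -0.0085 (limma-voom) and -0.064 to 0.086 leaving out 1 library, and Ctsb -0.0071 to 0.16. Between the subsets Ctsb was 0.14 (median-of-ratios), 0.13 (limma-voom) and -0.16 to 0.0049 leaving out 1 library within M, and 0.12 with either within L. For the interaction Ctsb was 0.052 and Ctsd -0.013 (quantile), and leaving out 1 library gave -0.084 to 0.082 for Ctsb, -0.037 to 0.13 for Ctsd, -0.0066 to 0.063 for Ctsh and -0.085 to 0.065 for Ctsz.

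With the replicate number as a block the all-gene counts were 45, 233, 4754, 4952 and 25 (L minus M in cDC1 and cDC2, the subsets within M and L, the interaction), and no member's call changed. The numbers were not taken to pair the libraries, since 3 of 18 same-number pairs, not all, correlated above 0.1. As a hint from the data, 16 of the 18 were above 0 (mean 0.047, range -0.010 to 0.16). Of 12 libraries, 3 correlated best with their own number in all groups. Of 36 other pairs, 12 were above 0 (mean -0.023, highest 0.089). Deviations from a group mean sum to 0 over its libraries, so the other pairs are not independent of the same-number pairs.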
